A study of Mus musculus with 6 samples.

Results

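The genes described here encode the proteins of nucleotide excision repair and base excision repair, the pathways that cut damaged nucleotides or bases out of DNA and refill the gap. The 33 genes formed a fixed list of names and were taken by symbol from a deposited table of 31456 rows, in which all 33 had a row of their own. They were compared, step by step, between 2 forms of the human colorectal carcinoma line HCT116. The first form was the parental line and the second was labelled resistant, which the study's design text ties to oxaliplatin, a platinum drug that forms adducts on DNA. Bulk RNA was sequenced from 3 parental and 3 resistant libraries. How the resistant cells were derived, whether they are 1 clone and whether drug was present at harvest are not stated in the labels, nor whether replicates were separate cultures. The p-values therefore measure the spread between these libraries. The labels give the organism as mouse, but 30616 rows carry human Ensembl identifiers, so the genes were read as human and no coordinates or sequences are given.

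In nucleotide excision repair, bulky lesions, platinum intrastrand crosslinks among them, are found either across the genome by the XPC complex and the DDB complex or at stalled RNA polymerase by the Cockayne syndrome proteins. The transcription factor TFIIH then opens the helix, XPA checks the lesion, and 2 nucleases, ERCC1-ERCC4 (also called ERCC1-XPF) and ERCC5 (XPG), cut the damaged strand on its 5′ and 3′ sides. In base excision repair a glycosylase removes a small damaged base, APEX1 nicks the abasic site, POLB fills the gap, and LIG3 with its scaffold XRCC1 seals it, while PARP1 and PARP2 sense the strand break.

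Total counts were 20246878 to 32138423 per library, and the 33 genes had between 214 counts (XPA, parental replicate 3) and 17565 counts (PARP1, parental replicate 2) in a library. At 214 counts the counting error alone is 6.84% of the value. The chi-square statistic per gene, which sampling noise alone would hold near 1, was 2.01 for parental replicates 1 and 3, 11.3 and 11 for the pairs with parental replicate 2, and 2.69 to 4.51 among resistant libraries, so parental replicate 2 stood apart from its group. The epithelial keratin genes KRT8, KRT18 and KRT19 and the adhesion genes EPCAM and CDH1 were well detected, whereas the intestinal markers VIL1, CDX1 and LGALS4 reached at most 7 counts in a library. The 4 leukocyte markers reached at most 4 counts. Of the 5 fibroblast markers COL1A2, DCN and LUM reached at most 2 counts. COL3A1 had 1, 1 and 0 counts in parental and 5, 11 and 9 counts in resistant libraries. The summed level of the fibroblast list, nearly all of it COL1A1, was 22.4 to 25.8 CPM, counts scaled to library size, in parental libraries. In resistant libraries it was 38.7 to 44.2 CPM. The endothelial marker VWF had 24, 26 and 15 counts in parental and 17, 34 and 29 counts in resistant libraries, and CDH5 had at most 1.

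In the step of lesion verification and incision every gene changed on counts: XPA, ERCC1 and ERCC4 rose and ERCC5 fell. On the authors' second set of values, taken as length-scaled (FPKM), ERCC4 did not pass in any fit, and ERCC5 did not pass in the fit without a filter. Among the 29 genes of the other steps 1 rose and 10 fell, a balance that turned to 6 rises and 5 falls when libraries were scaled by size alone. This split sets apart the step that holds most of the rises, and it is given without a test. In all, 4 of the 33 genes rose and 11 fell in resistant cells by edgeR's quasi-likelihood test (adjusted p under 0.05), and 18 did not pass. The 15 that passed make up 45.5% of the 33, against 53.8% of all 16605 genes tested, of which 27.3% were higher and 26.5% lower. By step the share that passed was 40% for recognition across the genome and 25% for transcription-coupled recognition. It was 28.6% for the TFIIH core, 33.3% for its kinase module and 100% for verification and incision. For glycosylases, abasic site and gap filling, and strand break sensing and ligation it was 50% each. Each step held 2 to 7 genes. With TMM none of the 33 changed by 1.5-fold or more, whereas 18.5% of all tested genes did so and passed the test, and the largest change was the 1.47-fold rise of ERCC1. With library sizes alone ERCC1 and XPA were past 1.5-fold, with log2 fold changes of 0.65 and 0.63, and each was also past it in 2 other alternatives, at 0.60. The median log2 fold change was -0.08 for the 33 genes and 0.02 for all tested genes. The groups did not overlap for 18 of the 33 genes (54.5%), 6 with every resistant library above and 12 with every resistant library below. Over all tested genes the share without overlap was 61.2%, with 31.3% above and 29.9% below.

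The balance of rises and falls depended on how libraries were scaled. With library sizes alone in place of the TMM normalization factors, 9 of the 33 genes were higher and 6 lower, the median of all tested genes moved to 0.11, and rises made up 65.3% of all calls, compared with 50.8% under TMM. Without parental replicate 2, 7 of the 33 were higher and 13 lower. Over all genes 9209 of 16867 passed without that library, and rises made up 49.9% of those calls. Of the 15 genes that passed, 8 (DDB1, DDB2, XPA, ERCC1, NTHL1, UNG, APEX1 and LIG3) passed in all 15 alternatives. Of 23 further genes of these pathways that passed, 9 did so in all alternatives. The share among all tested genes was not counted.

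**Figure D1:**
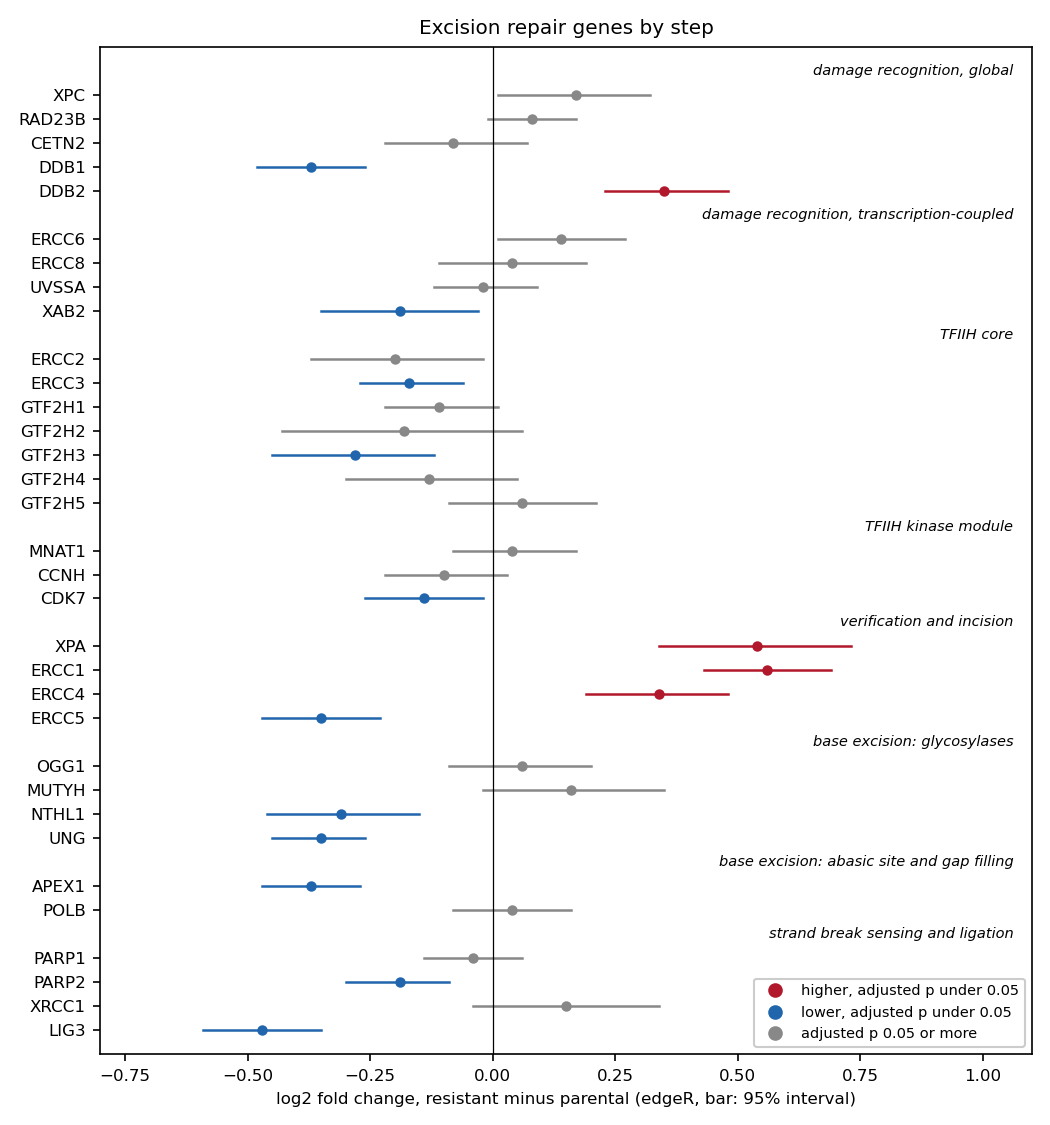
Log2 fold change of each of the 33 genes, resistant minus parental, from edgeR with its 95% interval, grouped by repair step; red and blue mark genes higher and lower at an adjusted p under 0.05. All points lie between -0.47 (LIG3) and 0.56 (ERCC1), and the verification and incision step is the step in which all genes passed.

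Of the 5 genes of damage recognition across the genome, DDB2 rose, DDB1 fell and XPC, RAD23B and CETN2 did not pass, although XPC and RAD23B were also higher with library sizes alone. DDB2 (ENSG00000134574.11), the damage-binding subunit of the DDB complex and a known p53 target, had 44.8, 46.9 and 45.4 CPM in parental replicates 1 to 3. It had 58.5, 61.6 and 54.8 CPM in resistant replicates 1 to 3. Every resistant library lay above every parental library, and the rise was 1.28-fold (log2 fold change 0.35 with an SE of 0.06, edgeR adjusted p = 2.6e-04). DDB1, the adaptor that joins DDB2 to the CUL4 ubiquitin ligase, had 501, 552 and 500 CPM in parental and 408, 411 and 385 CPM in resistant libraries. The groups did not overlap, and DDB1 fell 1.29-fold (log2 fold change -0.37 with an SE of 0.05, edgeR adjusted p = 8.3e-05). The subunits of the DDB complex moved in opposite directions. The ratio of DDB2 to DDB1 counts, which does not depend on library scaling, was 0.0883 ± 0.00296 in parental and 0.145 ± 0.00421 in resistant libraries (SD, n = 3). This ratio, like the other ratios of counts below, was chosen after the values were seen and is given without a test.

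The remaining subunits of the ligase, from the list of other pathway genes, were lower as well, but only CUL4A also passed with library sizes alone. CUL4A, a cullin scaffold, fell from 147 ± 4.78 to 106 ± 1.71 CPM (SD, n = 3), a 1.39-fold fall with an edgeR adjusted p of 3.1e-06. RBX1, the RING subunit, fell 1.18-fold (log2 fold change -0.24, edgeR adjusted p = 0.0052), and CUL4B, the second cullin, 1.09-fold (log2 fold change -0.13, edgeR adjusted p = 0.031). With library sizes alone neither RBX1 nor CUL4B passed, with adjusted p-values of 0.0518 and 0.583 within ranges over the alternatives of 2.17e-04 to 0.0615 and 0.0067 to 0.854. CUL4B lost its call in 8 of 15 alternatives, among them all 3 fits on FPKM (log2 fold change -0.02). RBX1 lost its call in 2 of 15.

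XPC (ENSG00000154767.14), the sensor of helix distortion and also a p53 target, had 51.9, 63.6 and 53.2 CPM in parental and 62.8, 62.8 and 64.3 CPM in resistant libraries. Parental replicate 2 lay among the resistant libraries, and the other 2 parental libraries lay below all of them. The log2 fold change was 0.17 with an SE of 0.07, and the edgeR adjusted p was 0.068. Without parental replicate 2 it was 0.27 with an adjusted p of 1.59e-04, within a range of 1.59e-04 to 0.305 over all alternatives. RAD23B, the partner that stabilises XPC, had 434 ± 2.95 CPM in parental and 459 ± 9.76 CPM in resistant libraries (SD, n = 3; edgeR adjusted p = 0.11). Its groups did not overlap, and it passed as higher in 3 of 15 alternatives, library sizes alone and both filtered fits on FPKM. CETN2, the centrin in the same complex, had 24.8 ± 0.827 and 23.4 ± 1.71 CPM, and the 95% interval of its fold change was 0.856 to 1.05.

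Of the 4 genes of transcription-coupled recognition, XAB2 was lower and none was higher, whereas with library sizes alone ERCC6 was higher and none was lower. XAB2, which binds XPA and also acts in splicing, had 103, 121 and 101 CPM in parental and 97.7, 98.4 and 88.0 CPM in resistant libraries. The highest resistant library stood just below the lowest parental library, and the log2 fold change was -0.19 with an SE of 0.07 (edgeR adjusted p = 0.044). XAB2 lost its call in 8 of 15 alternatives, among them library sizes alone (adjusted p = 0.257) and leaving out parental replicate 2 (adjusted p = 0.082), within a range of 7.34e-04 to 0.499. ERCC6, the Cockayne syndrome B ATPase, had 24.6 ± 0.288 and 27.1 ± 1.5 CPM (SD, n = 3), with an edgeR adjusted p of 0.062 and no overlap between the groups. ERCC8, the Cockayne syndrome A protein, had 14.1 ± 0.706 and 14.5 ± 0.503 CPM with a 95% interval of the fold change of 0.924 to 1.14. UVSSA, which stabilises ERCC6, had 66.3 ± 1.52 and 65.6 ± 0.885 CPM with an interval of 0.922 to 1.06.

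**Figure D2:**
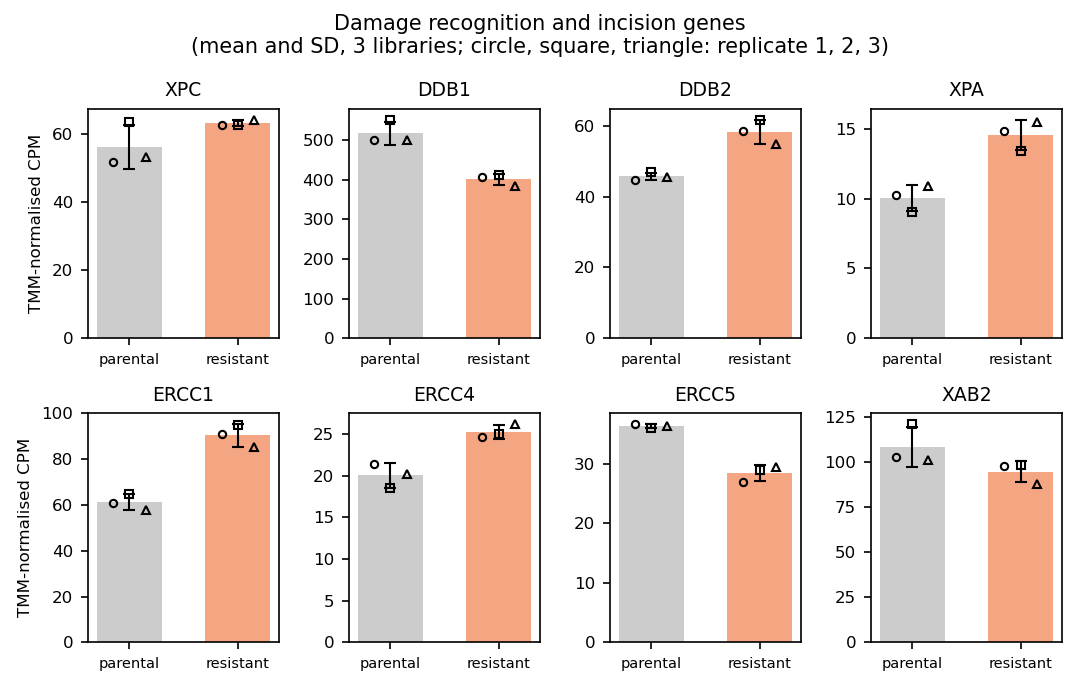
TMM-normalised CPM of 8 nucleotide excision repair genes, with bars for the mean, error bars for the SD over 3 libraries and a symbol for each replicate. For XPC parental replicate 2 (square) sits at 63.6 CPM among the resistant libraries, while XPA, ERCC1, ERCC4, DDB2, DDB1 and ERCC5 show no overlap between the groups.

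TFIIH, the helix-opening complex that also serves transcription initiation, was lower in 3 of its 10 subunit genes with TMM and in none with library sizes alone, and higher in none under either, while on FPKM GTF2H5 was higher. In the core, ERCC3 and GTF2H3 fell among 7 genes. ERCC3, the XPB translocase, had 96.6, 105 and 97.0 CPM in parental and 86.4, 91.4 and 88.1 CPM in resistant libraries. GTF2H3, the p34 subunit, had 120, 102 and 124 CPM in parental and 99.1, 88.4 and 96.7 CPM in resistant libraries. Neither gene's groups overlapped, and replicate 2 was the lowest library of both groups for GTF2H3. The falls were 1.12-fold for ERCC3 (edgeR adjusted p = 0.013) and 1.22-fold for GTF2H3 (edgeR adjusted p = 0.0088). In the kinase module, CDK7, the kinase that phosphorylates RNA polymerase II, had 56.9, 56.5 and 60.7 CPM in parental and 54.8, 50.3 and 52.7 CPM in resistant libraries. CDK7 was lower by a log2 fold change of -0.14 (edgeR adjusted p = 0.046).

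With library sizes alone the adjusted p-values were 0.211 for ERCC3, 0.0738 for GTF2H3 and 0.515 for CDK7, within ranges over the alternatives of 0.00118 to 0.211, 6.13e-07 to 0.288 and 0.0131 to 0.515. ERCC3 and GTF2H3 also did not pass in any fit on FPKM, whereas CDK7 passed in all of them. Without resistant replicate 1 ERCC3 did not pass either (edgeR adjusted p = 0.067). CDK7 lost its call in 8 of 15 alternatives, 5 of which left out a library other than parental replicate 2.

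Of the other TFIIH genes ERCC2, the XPD helicase, had 67.5 ± 6.76 and 59.0 ± 4.9 CPM (SD, n = 3; log2 fold change -0.20, edgeR adjusted p = 0.055), and it passed as lower in 6 of 15 alternatives. Among GTF2H1, GTF2H4 and GTF2H5 the log2 fold changes ran from -0.13 (GTF2H4) to 0.06 (GTF2H5), and for the kinase assembly factor MNAT1 and the cyclin CCNH they were 0.04 and -0.10. GTF2H5, the smallest TFIIH subunit, was higher in all 3 fits on FPKM, by 0.31 on log2(FPKM + 1) with a limma adjusted p of 0.014, within a range of 0.014 to 0.982 over all alternatives. GTF2H1, the p62 subunit, was lower in 4 of 15 alternatives, among them both filtered fits on FPKM (log2 fold change -0.16, limma adjusted p = 0.0348 and 0.0337), within a range of 0.0337 to 0.875. GTF2H2, the p44 subunit, had 57.2 ± 7.36 and 50.2 ± 5.46 CPM with an edgeR adjusted p of 0.19, and it passed as lower in 3 of 15 alternatives. Its level is uncertain because GTF2H2B and GTF2H2C are near-identical copies and reads can be divided among them. GTF2H2C fell from 82.6 ± 1.8 to 58.6 ± 0.284 CPM (edgeR adjusted p = 2.8e-06), and GTF2H2B from 22.6 ± 0.382 to 18.8 ± 0.879 CPM (edgeR adjusted p = 0.0031). The 3 copies summed to 166, 152 and 168 CPM in parental and 130, 122 and 130 CPM in resistant libraries, a level 1.27-fold lower with no overlap.

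All 4 genes of lesion verification and incision passed the test, as did 53.8% of all genes tested. ERCC1 (ENSG00000012061.15), which anchors the 5′ nuclease to DNA, had 61.0, 64.8 and 58.0 CPM in parental replicates 1 to 3. It had 91.1, 95 and 85.2 CPM in resistant replicates 1 to 3. The lowest resistant library stood well above the highest parental library, and the rise was 1.47-fold (95% interval 1.35 to 1.61, log2 fold change 0.56 with an SE of 0.06, edgeR adjusted p = 7.8e-06). ERCC4 (ENSG00000175595.14), its catalytic partner, had 21.4, 18.5 and 20.2 CPM in parental and 24.6, 25.0 and 26.2 CPM in resistant libraries. The groups did not overlap, and ERCC4 rose 1.26-fold (95% interval 1.14 to 1.40, edgeR adjusted p = 0.0012). The ratio of ERCC1 to ERCC4 counts was 2.85, 3.5 and 2.87 in the parental and 3.71, 3.8 and 3.25 in the resistant libraries, so the groups overlapped for this ratio. On the authors' FPKM the ERCC4 difference did not pass (log2 fold change 0.17, limma adjusted p = 0.327, within a range of 5.11e-05 to 0.497 over all alternatives).

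XPA (ENSG00000136936.10), the scaffold that checks the lesion and recruits the nucleases, had the fewest counts of the 33 genes. It had 10.3, 9.07 and 10.9 CPM in parental and 14.9, 13.4 and 15.5 CPM in resistant libraries. No library crossed over, and the rise was 1.45-fold (95% interval 1.27 to 1.66, log2 fold change 0.54 with an SE of 0.09, edgeR adjusted p = 3.7e-04). ERCC5 (ENSG00000134899.20), the 3′ nuclease XPG, went the other way, from 36.7, 36.0 and 36.3 CPM to 27.0, 29.0 and 29.4 CPM. The parental libraries were almost equal, all resistant libraries lay below them, and the fall was 1.28-fold (log2 fold change -0.35 with an SE of 0.06, edgeR adjusted p = 2.4e-04). With limma on FPKM without a filter ERCC5 did not pass (adjusted p = 0.0703, range over all alternatives 1.3e-07 to 0.0703). The genes of the 5′ and 3′ cuts moved in opposite directions. The ratio of ERCC1 to ERCC5 counts was 1.66, 1.8 and 1.6 in the parental and 3.37, 3.28 and 2.89 in the resistant libraries, 1.89 times as high on average.

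In the human genome ERCC1 overlaps, in antisense, the RNA polymerase I gene listed here as CD3EAP, and the strand setting of the counting is not given in the sources used here. Reads from the overlap therefore cannot be told apart. CD3EAP moved opposite to ERCC1, from 52.8 ± 1.97 to 35.2 ± 0.742 CPM (SD, n = 3; edgeR adjusted p = 2.6e-06). The neighbour PPP1R13L, a p53 inhibitor gene, had 32.5 ± 1.97 and 30.7 ± 2.09 CPM and did not pass. KLC3, which neighbours ERCC2, was 22.1 ± 0.701 and 19.5 ± 1.58 CPM (edgeR adjusted p = 0.043).

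In base excision repair, of 4 glycosylase genes UNG and NTHL1 fell and OGG1 and MUTYH did not pass, although MUTYH was higher with library sizes alone. UNG, the uracil glycosylase, had 162, 161 and 156 CPM in parental and 126, 128 and 121 CPM in resistant libraries. The spread within each group was small beside the gap between them, and the fall was 1.28-fold (log2 fold change -0.35 with an SE of 0.04, edgeR adjusted p = 3.3e-05). NTHL1, which removes oxidised pyrimidines, had 16.0, 18.1 and 17.4 CPM in parental and 14.8, 13.5 and 13.5 CPM in resistant libraries. The groups did not overlap, and NTHL1 fell 1.24-fold (log2 fold change -0.31 with an SE of 0.07, edgeR adjusted p = 0.0039). OGG1, the glycosylase of 8-oxoguanine, had 16.2 ± 0.633 and 16.8 ± 0.779 CPM (SD, n = 3), with a 95% interval of the fold change of 0.94 to 1.15. MUTYH, which removes adenine opposite 8-oxoguanine, had 21.0 ± 2.78 and 23.7 ± 0.916 CPM (edgeR adjusted p = 0.13). As for XPC, parental replicate 2 was its highest parental library, at 24.1 CPM. Without that library the MUTYH log2 fold change was 0.28 with an adjusted p of 0.00189, within a range of 0.00189 to 0.436. TOE1, a neighbour of MUTYH, and CAMK1, a neighbour of OGG1, fell by 0.43 and 0.24 on the log2 scale (edgeR adjusted p = 6.4e-04 and 0.019).

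APEX1 (ENSG00000100823.12), the endonuclease that cuts abasic sites, fell and POLB did not pass. APEX1 had 235, 243 and 230 CPM in parental and 187, 184 and 176 CPM in resistant libraries. The fall was 1.29-fold with no overlap (95% interval of resistant over parental 0.722 to 0.826, edgeR adjusted p = 2.7e-05). Its neighbour OSGEP rose instead, from 23.1 ± 1.28 to 30.1 ± 1.54 CPM (SD, n = 3; edgeR adjusted p = 3.9e-04). POLB, the gap-filling polymerase, had 22.7, 23.4 and 24.0 CPM in parental and 23.9, 23.5 and 24.7 CPM in resistant libraries. The groups overlapped, and the 95% interval of the POLB fold change was 0.944 to 1.12.

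Among the genes of strand break sensing and ligation LIG3 and PARP2 fell, and with library sizes alone LIG3 fell and XRCC1 rose. LIG3 (ENSG00000005156.11), the ligase that seals nicks in the nucleus and in mitochondria, had 59.1, 62.2 and 56.2 CPM in parental and 42.4, 43.3 and 42.6 CPM in resistant libraries. This was the largest fall of the 33 genes, 1.39-fold with no overlap (log2 fold change -0.47 with an SE of 0.05, edgeR adjusted p = 1.7e-05). RFFL, the neighbour of LIG3, rose from 42.7 ± 0.996 to 57.9 ± 1.58 CPM (SD, n = 3; edgeR adjusted p = 1.8e-05).

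PARP2, a poly(ADP-ribose) polymerase, had 84.5, 92.9 and 89.1 CPM in parental and 78.0, 75.5 and 79.4 CPM in resistant libraries, a 1.14-fold fall (edgeR adjusted p = 0.0062). PARP2 did not pass with library sizes alone (adjusted p = 0.0999) or in any of the 3 fits on FPKM (adjusted p up to 0.406), within a range of 7.69e-04 to 0.406. PARP1, the main enzyme of this kind and the gene of the 33 with the most counts, had 549 ± 20.6 and 534 ± 9.54 CPM with a 95% interval of the fold change of 0.911 to 1.04. XRCC1, the scaffold that carries LIG3, had 33.3, 39.8 and 30.4 CPM in parental and 39.0, 39.4 and 37.2 CPM in resistant libraries (log2 fold change 0.15, edgeR adjusted p = 0.16). Parental replicate 2 again lay with the resistant libraries, and without it the XRCC1 log2 fold change was 0.27 with an adjusted p of 0.00105, within a range of 0.00105 to 0.541. The ratio of XRCC1 to LIG3 counts was 0.582 ± 0.052 in the parental and 0.901 ± 0.0234 in the resistant libraries.

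**Figure D3:**
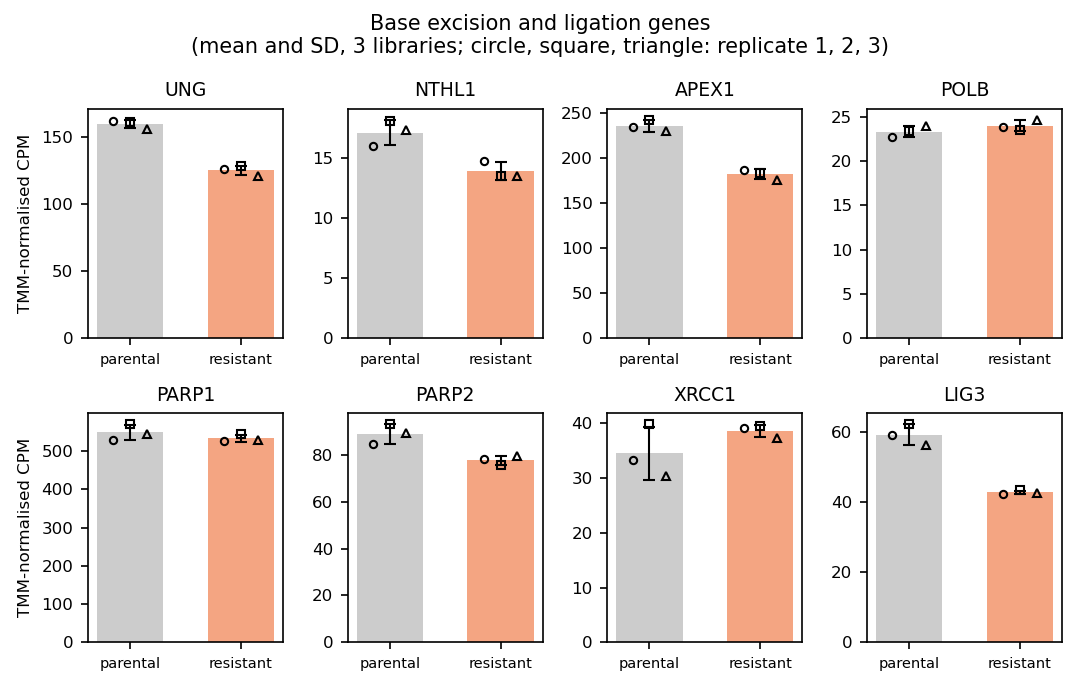
TMM-normalised CPM of 8 base excision and ligation genes, with bars for the mean, error bars for the SD over 3 libraries and a symbol for each replicate. UNG, NTHL1, APEX1, PARP2 and LIG3 are lower in every resistant library, POLB and PARP1 overlap, and for XRCC1 parental replicate 2 (square) reaches 39.8 CPM.

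Levels of different genes were compared on the authors' values taken as FPKM, that is, scaled to length. Their ratio to CPM was not fixed for each gene, as DDB2 and ERCC1 below show. The lengths used are not given, and the cause was not tested. In the parental cells the level ran from 4.21 ± 0.386 FPKM (ERCC4) to 224 ± 5.08 FPKM (APEX1), a 53.2-fold range. APEX1, PARP1, DDB1, RAD23B and UNG led the parental order, each above the next by more than their SDs. ERCC4, ERCC6 and GTF2H5 were the lowest, and ERCC4 and ERCC6 lay within 1 SD of each other. Of the 32 neighbouring pairs in that order, 21 had ranges of mean ± 1 SD that overlapped, so much of the middle of the order is not resolved. ERCC1, at 58.6 ± 5.24 FPKM, stood far above its partner ERCC4, and in the resistant cells the levels were 78.0 ± 6.67 and 4.88 ± 0.911 FPKM. ERCC1 moved from 9th to 5th place and DDB2 from 17th to 10th, with DDB2 at 32.2 ± 0.73 FPKM in the parental and 47.9 ± 1.41 FPKM in the resistant cells. The DDB2 difference was larger on FPKM than on counts, with a log2 fold change of 0.56 on log2(FPKM + 1) against 0.35. The ERCC1 difference was smaller there, with 0.41 on log2(FPKM + 1) against 0.56 on counts.

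**Figure D4:**
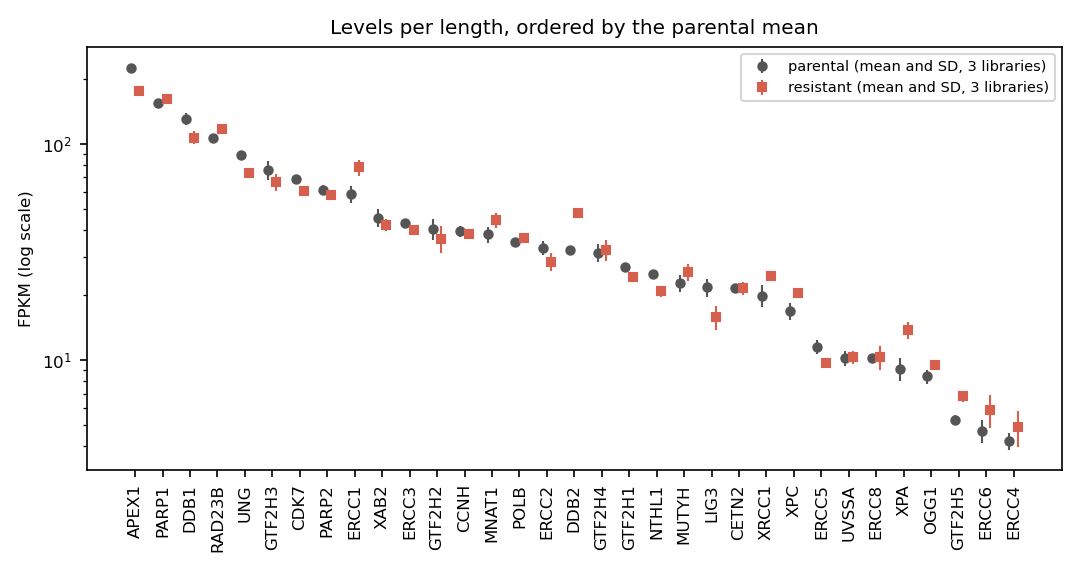
Mean FPKM with SD over 3 libraries for the 33 genes on a log axis, ordered by the parental mean (circles) with the resistant mean beside it (squares). APEX1 is highest and ERCC4 lowest in both forms, and the ERCC1 and DDB2 squares stand above their circles.

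Of 45 other genes of these pathways 5 rose, 18 fell and 22 did not pass, with a median log2 fold change of -0.09. The share that passed was 51.1%, against 53.8% of all genes tested, of which 27.3% were higher and 26.5% lower. With library sizes alone 12 were higher and 10 lower, and without parental replicate 2, 9 were higher and 17 lower. Among 12 further genes of nucleotide excision repair 5 fell and none rose, so 41.7% passed. CUL4A, RBX1 and CUL4B, given above, were among them, as was the deubiquitinase gene USP7 (1.11-fold, edgeR adjusted p = 0.013). USP7 lost its call in 5 of 15 alternatives, among them library sizes alone (adjusted p = 0.332), all 3 fits on FPKM and leaving out resistant replicate 1 (adjusted p = 0.0731), within a range of 0.00109 to 0.591. With library sizes alone, 2 of these 12 were lower and 2 higher. The single-strand binding protein genes RPA1, RPA2 and RPA3 did not pass, with log2 fold changes between -0.03 and 0.00.

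Of 16 genes of gap synthesis and ligation shared by several pathways 2 rose, 4 fell and 10 did not pass. The share that passed was 37.5%, against 53.8% of all genes tested. With library sizes alone 5 of the 16 were higher and 3 lower. RFC5, a clamp loader subunit, rose from 102 ± 2.92 to 142 ± 6.81 CPM (edgeR adjusted p = 8.4e-06). POLD3, a subunit of DNA polymerase delta, rose 1.22-fold, while POLD2, another subunit of it, fell 1.30-fold (edgeR adjusted p = 5.4e-04 and 1.4e-04). POLD2 did not pass with limma on FPKM without a filter (adjusted p = 0.0567). POLE3, a subunit of DNA polymerase epsilon, fell 1.26-fold on counts (edgeR adjusted p = 5.0e-05) but had 68.6 ± 0.357 and 68.2 ± 2.27 FPKM and did not pass there, within a range of adjusted p from 1.98e-10 to 0.912. The sliding clamp gene PCNA and the ligase gene LIG1 did not pass, at 315 ± 7.3 and 334 ± 12.7 CPM and at 110 ± 5.65 and 104 ± 2.31 CPM, although PCNA was higher in 4 of 15 alternatives, library sizes alone among them.

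Of 17 further genes of base excision and break repair 3 rose, 9 fell and 5 did not pass. The share that passed was 70.6%, against 53.8% of all genes tested. With library sizes alone 5 of the 17 were higher and 5 lower. With TMM 2 genes of the 45 changed by 1.5-fold or more, both of them here. MBD4, a glycosylase of mismatched thymine and uracil, had 20, 21.7 and 23.8 CPM in parental and 11.1, 11.5 and 10.7 CPM in resistant libraries. The parental libraries all lay far above the resistant ones, and the fall was 1.95-fold (log2 fold change -0.97 with an SE of 0.08, edgeR adjusted p = 8.9e-07). APLF, a histone chaperone of break repair, had 1.58, 1.11 and 1.27 CPM in parental and 4.02, 4 and 3.89 CPM in resistant libraries. This low-level gene rose 3.01-fold with no overlap (95% interval 2.34 to 3.87, edgeR adjusted p = 8.3e-06). NEIL3, a glycosylase that also unhooks crosslinks, rose 1.45-fold, from 33.1 ± 1.91 to 47.8 ± 0.705 CPM (SD, n = 3; edgeR adjusted p = 9.6e-06), and was past 1.5-fold with library sizes alone (log2 fold change 0.63). HMGB1, an abundant chromatin protein gene, fell 1.30-fold from 873 ± 58.2 to 671 ± 24.3 CPM (edgeR adjusted p = 1.1e-04).

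The spread between libraries of a form was small for most of the 33 genes. The coefficient of variation of the CPM was 0.68% to 13.9% in the parental libraries, with a median of 5.01%, and 1.14% to 10.9% in the resistant libraries, with a median of 3.57%. It exceeded 10% for 6 genes in the parental group and for 1 in the resistant group. Parental replicate 2 was the highest parental library for 17 of the 33 genes and the lowest for 11. For the 18 genes that did not pass, the 95% intervals of the fold change reached from 0.741 (GTF2H2) to 1.28 (MUTYH), and a p that missed the threshold does not show equal levels. In bulk RNA, fewer cells expressing a gene and less of its RNA per cell cannot be told apart.

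**Figure D5:**
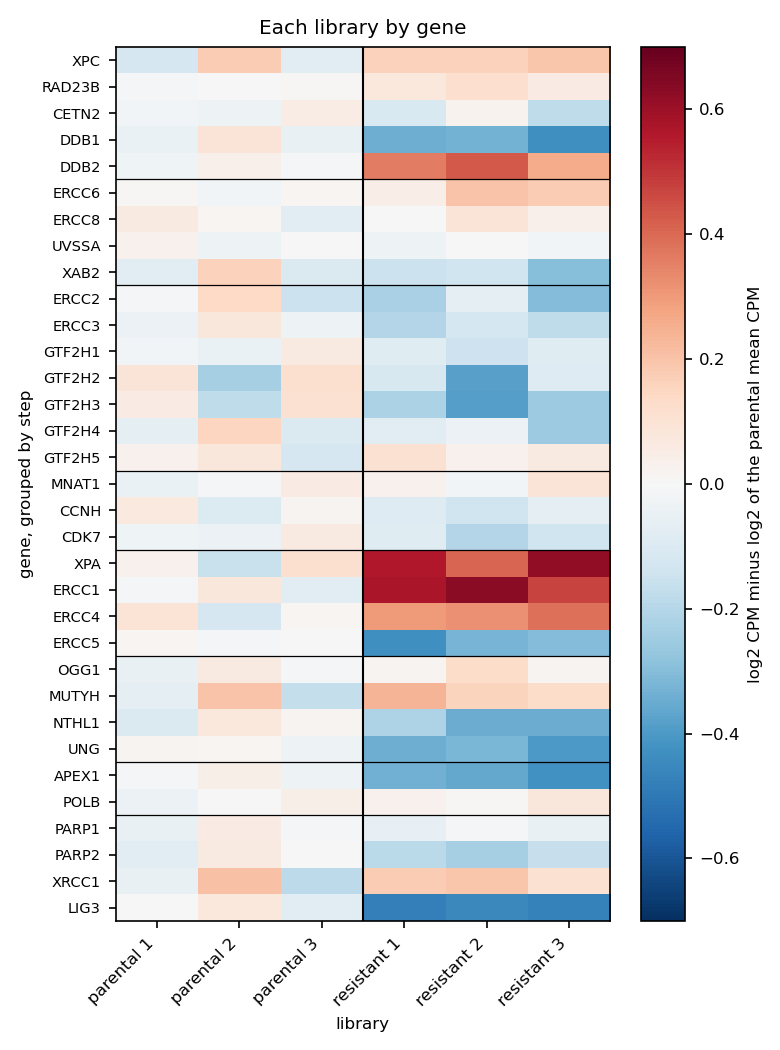
Log2 CPM of each of the 33 genes in each library minus the log2 of its parental mean CPM, with genes grouped by step and the groups divided by a vertical line. XPA, ERCC1, ERCC4 and DDB2 are the reddest rows in the resistant libraries and LIG3 the bluest, and parental replicate 2 is redder than its group for XPC, MUTYH and XRCC1.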

How the data were processed

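RNA was sequenced from 3 parental and 3 resistant HCT116 libraries, for which the labels' protocols name the SMARTER mRNA-Seq kit. No aligner, counting program, annotation release or strand setting is named (not given in the sources used here). Besides, the submitters' processing notes name the mouse builds GRCm38 and mm10, which were not used. Whole-number read counts without normalization were deposited by the authors. Their second deposited table was taken as FPKM, an inference from its values because its header names no unit, and served for levels between genes and for alternatives. Samples were grouped by title, and columns were assigned by description.

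All rows, 840 of them without a human identifier, entered edgeR 4.0.16 (R 4.3.3) with TMM, filterByExpr and a robust quasi-likelihood fit, two-sided, with Benjamini-Hochberg adjustment over 16605 genes and a threshold of 0.05. CPM use TMM factors, errors are the SD over 3 libraries, the SE is the log2 fold change divided by the square root of F, and intervals are 95%. Exact permutation of 3 against 3 libraries cannot go below p = 0.1 and was not used. Alternatives were RLE factors, library sizes alone, no filter, at least 1 CPM in 3 libraries, DESeq2 1.42.0, limma 3.58.1 on log2(FPKM + 1) and log2(FPKM + 0.1) with at least 0.5 FPKM in 3 libraries and on log2(FPKM + 1) without that filter, a replicate block, and leaving out each library. The main edgeR fit, DESeq2 and limma on simulated CPM were tested on simulated counts, and the other alternatives were not. The edgeR fit recovered 34 of 50 genes changed 1.25-fold and 48 of 50 changed 1.5-fold, with 12 false calls. The simulation had a fixed small dispersion and no outlying library, so it does not show the error rates in these data.

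The 33 genes, the other pathway genes and the neighbours were chosen with earlier results of these data known. The naming rule covered all 33 genes, every library's value for those past the threshold and for XPA, XPC, ERCC4, ERCC5 and POLB, the neighbours, and up to 4 genes with the smallest adjusted p of each further list. CUL4B, RPA1, RPA2, RPA3, PCNA and LIG1, and the libraries of XRCC1, fall outside it and were chosen after their values were seen. Neighbours are general knowledge, since no human annotation was used. PECAM1 was not analysed here, and 1 gene that the naming rule covers is not reported here.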

Additional observations from a re-analysis of the deposited data

How the results depend on the processing

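Of the 33 genes 15 passed the threshold, 8 of them in all 15 alternatives, and 7 lost the call in at least 1 (6 of them in a fit on FPKM, 5 with library sizes alone). How many of all tested genes kept their call in every alternative was not counted. No called gene of the 33 reversed its direction. Of the 18 genes that did not pass, 10 did in at least 1 alternative. The count of the 33 genes that were higher was 4, and it was 9 with library sizes alone, 7 on log2(FPKM + 1) and on log2(FPKM + 0.1), and 8 with a replicate block. Leaving out 1 library gave 4 to 7, the latter without parental replicate 2. Over all genes 6533 of 16535 passed on log2(FPKM + 1), 5290 of 31456 without its filter and 9973 of 16605 with the block. Rises made up 58.4%, 59.2% and 50.2% of those calls. The count of the 33 genes that were lower was 11, and it was 6 with library sizes alone and 6 on log2(FPKM + 1) with no filter. It rose to 12 with RLE factors, 13 with no filter on low counts and 14 with a replicate block. It was 8 to 13 when a library was left out. For the other pathway genes the higher count of 5 became 12 with library sizes alone and 4 to 9 when a library was left out. Their lower count of 18 became 20 with a replicate block and 10 with library sizes alone. It was 7 in both filtered FPKM fits and 5 without the filter, and 14 to 17 when a library was left out. The cause was not tested. The labels do not say whether replicate numbers pair the libraries, and so few libraries cannot decide it. Same-numbered libraries had correlations of their deviations of 0.07, 0.14 and 0.01, against -0.15 to 0.09 for other pairs. The block raised the calls over all genes from 8933 to 9973. Counts of 214 or more per library limit the lowest genes to changes larger than their counting error.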
